A study of Mus musculus with 6 samples.

Results

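Most accessible DNA in a nucleus lies in or beside genes, and this account is about the part that does not: accessible regions more than 100 kb from the bounds of every protein-coding gene. Of 193148 regions counted in all libraries, 18444 on chromosomes 1 to 19 met this rule, measured against the 21887 genes that RefSeq annotates as protein-coding in GRCm38.p6 (mm10). They are called far regions here, and the 171131 other regions of chromosomes 1 to 19 are called nearer regions. The rule uses position alone and no measured value, though it was set with earlier results of these data known. Far regions lay at a median of 223850 bp and at most 2249144 bp from a coding gene, and 95.4% of them shared the same fixed width.

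The series measured accessible chromatin by ATAC-seq in nuclei of the mouse ventral tegmental area, a midbrain region whose dopaminergic neurons serve reward. It compared Ogtflox+/Y with Ogtflox-/Y mice, 3 libraries each, called knockdown and control below. Both genotypes had AAV-TH-Cre injected in this area, together with AAV-DIO-H2B-EGFP, and nuclei positive for EGFP were sorted, so the viral vectors, Cre and the sort are common to both groups. The name of the Cre vector points to the tyrosine hydroxylase promoter, and ages and strain are not stated. The labels do not say that each library came from its own animal, so p-values measure only how much these libraries vary, and that variation may be technical. Knockdown replicate 1 is Ogtflox+/Y in its genotype label, while its title reads Ogtflox-/Y. It was grouped by its genotype label, and the grouping by title is given beside the first result. Ogt encodes the enzyme that adds O-GlcNAc to nuclear and cytoplasmic proteins. It lies on the X chromosome, outside the chromosomes described here, and which exons are floxed is not stated, so accessibility does not check the genotype labels.

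ATAC-seq counts the insertions of a transposase, which enters DNA where nucleosomes are absent or loose. Accessible DNA far from genes often marks enhancers, sequences bound by transcription factors that can act on promoters over long distances, or promoters of non-coding RNA genes. Long gaps without coding genes often flank genes of developmental transcription factors and of neuronal adhesion proteins, and the gene an enhancer acts on need not be the nearest one.

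Library totals were 34384319 to 66853563 reads, and 36.6 to 38.2% of reads in control and 31.0 to 37.0% in knockdown fell in regions. Levels are in CPM, read counts scaled to the reads each library has in regions, with TMM factors. The labelled cells were checked at gene ends, within 1000 bp of a marker gene's bounds. Of 12 dopaminergic markers 11 had an accessible gene end (Ddc had none), with summed levels of 312 to 520 CPM in control and 339 to 402 CPM in knockdown. Markers of other cells were also accessible: 8 of 10 GABAergic markers (none for Gad2 and Gata2) summed to 38.0 to 54.8 CPM in control and 60.4 to 73.8 CPM in knockdown, 9 of 10 astrocyte markers (none for Aqp4) to 151 to 169 and 162 to 223 CPM, and 10 of 10 oligodendrocyte markers to 77.9 to 82.1 and 57.6 to 115 CPM. Of the microglial markers 4 of 10 had an accessible gene end, summing to 13.1 to 13.9 and 9.57 to 14.9 CPM, and of the endothelial and mural ones 8 of 10, at 21.7 to 28.3 and 14.7 to 22.2 CPM. The GABAergic sums did not overlap between the groups. The part of cell composition in the results below was not tested, and in bulk nuclei a change in the number of cells of a type and a change in accessibility per cell cannot be told apart.

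Some far regions are the start sites of non-coding genes, and these are the far regions for which a sequence can be shown. RefSeq promoter windows (GRCm38.p6, 250 bases before to 50 bases after a start) of 270 non-coding genes overlapped 273 far regions. The following 4 windows, each 300 bases and written 5′ to 3′ on the gene's strand, belong to the results described further below. Tunar and Lncpint were among the most accessible starts and rose, and Gm35440 and Gm33646 were among the largest gain and loss at a start. Capitals mark matches, on either strand, to 5 motifs: TGANTCA (AP-1), TTCNNNGAA (STAT), CANNTG (E-box), TAATTA (homeodomain) and the core motif of CTCF.
Tunar promoter window: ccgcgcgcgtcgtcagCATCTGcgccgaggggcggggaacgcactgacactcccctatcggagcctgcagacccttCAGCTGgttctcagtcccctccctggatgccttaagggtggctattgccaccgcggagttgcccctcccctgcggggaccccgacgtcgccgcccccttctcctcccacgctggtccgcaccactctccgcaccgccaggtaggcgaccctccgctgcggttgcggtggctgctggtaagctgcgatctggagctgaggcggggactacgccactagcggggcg
Lncpint promoter window: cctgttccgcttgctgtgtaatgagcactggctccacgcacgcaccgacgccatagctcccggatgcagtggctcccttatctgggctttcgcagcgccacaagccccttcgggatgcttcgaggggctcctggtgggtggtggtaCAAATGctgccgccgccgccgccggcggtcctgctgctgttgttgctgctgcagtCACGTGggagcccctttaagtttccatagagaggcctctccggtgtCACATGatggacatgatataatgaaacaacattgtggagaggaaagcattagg
Gm35440 promoter window: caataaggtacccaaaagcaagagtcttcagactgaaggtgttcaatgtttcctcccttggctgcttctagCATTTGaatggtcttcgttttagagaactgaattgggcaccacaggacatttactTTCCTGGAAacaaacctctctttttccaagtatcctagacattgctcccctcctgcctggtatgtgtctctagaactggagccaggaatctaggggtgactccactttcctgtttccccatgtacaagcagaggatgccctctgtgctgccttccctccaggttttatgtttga
Gm33646 promoter window: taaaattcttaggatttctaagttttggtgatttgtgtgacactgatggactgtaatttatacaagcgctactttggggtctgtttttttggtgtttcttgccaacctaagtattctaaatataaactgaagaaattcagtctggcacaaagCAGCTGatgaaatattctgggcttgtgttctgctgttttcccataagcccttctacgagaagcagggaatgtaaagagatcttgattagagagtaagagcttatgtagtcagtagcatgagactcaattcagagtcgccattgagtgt
The matches in Tunar, Lncpint and Gm33646 are E-box letters, and Gm35440 holds 1 match to the STAT letters beside 1 E-box. Matches may overlap each other. A match describes letters and is not evidence of binding. Among 308 windows at far regions, 11.4% held the STAT letters, against 9.41% of the 11588 windows of non-coding genes and 8.30% of all 32851 windows of the table. The AP-1 letters stood in 12.3%, against 9.31% and 7.81%, and the homeodomain letters in 9.74%, against 6.68% and 5.29%. The E-box letters stood in 76.6%, below the 78.4% of non-coding windows and above the 72.3% of all windows, and the CTCF motif in 0 of 308, against 0.035% and 0.024%. The windows at far regions had a median GC content of 47.7%, against 48.3% for non-coding and 52.7% for all windows, so base composition moves with these shares.

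Other far regions cover microRNA hairpins. The Mir344 cluster on chromosome 7 contributed most of them, and its mature sequences are shown because its members differed in how they changed. From RefSeq (GRCm38.p6), with the seed, bases 2 to 8, in capitals:
miR-344c-3p: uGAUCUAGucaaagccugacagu
miR-344-3p: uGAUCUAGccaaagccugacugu
miR-344d-3p: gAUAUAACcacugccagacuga
miR-344e-3p: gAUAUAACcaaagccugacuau
miR-344f-3p: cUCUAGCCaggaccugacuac
miR-344i: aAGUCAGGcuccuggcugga
miR-344-5p: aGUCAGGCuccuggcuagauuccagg
miR-137-3p: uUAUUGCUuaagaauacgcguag
miR-6343: uGUAAAGUaggagcugacugac
The 3p strands of Mir344c, Mir344 and Mir344-2 share the seed GAUCUAG, and miR-344-3p comes from both Mir344 and Mir344-2. The 3p strands of Mir344d-1, Mir344d-2, Mir344d-3 and Mir344e share AUAUAAC. Of the 5p strands, 7 share GUCAGGC.

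Far regions were called higher in knockdown more often than lower, while regions nearer to genes were called in both directions at closer shares. Of 18057 far regions that passed the filter on low counts, 97.9% of the 18444, accessibility rose at 3136 (17.4%) and fell at 1590 (8.81%) by edgeR's quasi-likelihood test with a Benjamini-Hochberg adjusted p under 0.05. Over all 191693 tested regions the shares were 15.4% higher and 12.7% lower, and over the nearer regions 15.2% and 13.1%. Changes of at least 2-fold made up 2153 of the 3136 far gains and 856 of the 1590 far losses. In nearer regions they made up 10426 of 25931 gains and 8700 of 22255 losses, and over all regions 12775 of 29589 and 9796 of 24251. Far regions held fewer reads at the median, and the part of this in the share of large folds was not tested. The median log2 fold change of knockdown over control was 0.12 for far regions, -0.019 for nearer regions and -0.0063 for all regions. The groups did not overlap, with every knockdown library above every control library, at 23.5% of far regions, and in the opposite direction at 14.8%, against 21.0% and 21.2% of all regions.

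The direction of these counts depends on how libraries are scaled. With scaling by library totals 1775 far regions (9.83%) were higher and 3100 (17.2%) lower, and 6.57% and 25.5% of nearer regions, with medians of -0.14 and -0.28, so both classes moved down and far regions stayed above nearer ones. With scaling by reads in regions the far median was 0.011 and the nearer one -0.13. The far median was above the nearer median in 12 of 12 alternative fits, and the far share of losses was below the nearer one in 11. The far share of gains was above the nearer one in 9, and below it in DESeq2 (10.7% against 10.9%) and without control replicate 1 (11.97% against 12.2%). Grouping by title gave 0 far regions called by edgeR, with 1894 of 18382 at an unadjusted p under 0.05 and a far median of 0.061. It gave 0 nearer regions called as well, with 20716 of 170982 at an unadjusted p under 0.05 and a nearer median of -0.032.

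Far regions were sites of low accessibility. Their median level was 1.54 CPM, with quartiles of 1.09 and 2.52 CPM and a highest level of 51.9 CPM, against a median of 2.497 CPM in nearer regions. By library the median far region had 1.37, 1.41 and 1.61 CPM in control replicates 1 to 3 and 1.66, 1.66 and 1.53 CPM in knockdown replicates 1 to 3. Control replicate 3 was above knockdown replicate 3, so the medians of the groups overlapped. The median nearer region had 2.58, 2.54 and 2.56 CPM in control and 2.42, 2.38 and 2.39 CPM in knockdown, which did not overlap. Far regions took 4.02, 4.11 and 4.56% of the reads in regions in control and 4.31, 4.45 and 4.11% in knockdown, and these overlapped too. The median far region held 18 to 36 reads in control and 21 to 23 in knockdown, so a change at a single far region rests on few reads.

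Among far regions the balance of gains and losses shifted with distance. From 100 to 250 kb, 15.9% of 10180 tested regions rose and 9.70% fell, and from 250 to 500 kb 17.3% of 5257 rose and 8.41% fell. From 500 to 1000 kb 21.7% of 2099 rose and 6.67% fell. Beyond 1000 kb, in the middle of the longest gaps, 150 of 521 rose (28.8%) and 21 fell (4.03%), and the median level went from 0.989 CPM in control to 1.44 CPM in knockdown. The median log2 fold change was 0.075, 0.15, 0.26 and 0.51 in these 4 bands. Nearer to genes the balance did not follow distance in one direction. Of 125078 tested regions that overlap a gene 15.2% rose and 12.4% fell, with a median of -0.0084. Outside genes but within 1 kb of one, 24.1% of 3539 rose and 10.9% fell, with a median of 0.11. Losses were more frequent than gains from 1 to 10 kb (14.7% higher and 17.9% lower). From 50 to 100 kb, just inside the 100 kb limit, the shares were 14.8% and 11.8% with a median of 0.0015. From 100 to 150 kb, just outside it, they were 15.7% and 10.3% with a median of 0.052.

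The separate libraries show where this holds. Beyond 1000 kb the median deviation from each region's own mean, in log2 of CPM + 0.5, was -0.31, -0.20 and -0.044 in control and 0.22, 0.25 and 0.080 in knockdown. No overlap was seen between the groups, and control replicate 3 and knockdown replicate 3 were the closest pair. From 100 to 250 kb control replicate 3 (0.068) was above knockdown replicate 3 (-0.013). The median beyond 1000 kb stayed above 0 in 12 of 12 alternative fits, from 0.24 with library totals to 0.62 without control replicate 3, and with library totals 18.2% were higher and 9.41% lower there. The share of reads in regions, lower in knockdown replicates 1 and 2 (33.0 and 31.0%) than in the other 4 libraries (36.6 to 38.2%), moves with these medians across libraries, and its part in the result was not tested.

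**Figure D1:**
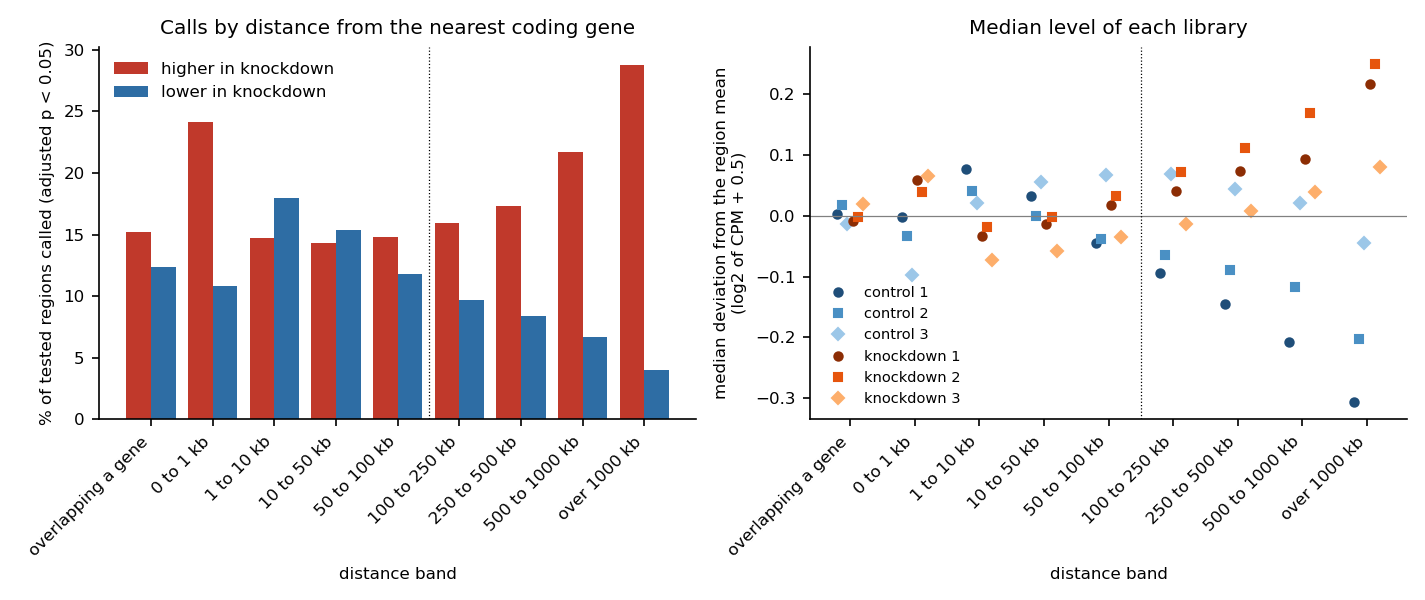
Left, the percentage of tested regions called higher (red) or lower (blue) in knockdown by distance from the nearest coding gene, with the dotted line at 100 kb. Right, the median deviation of each library from the region mean in the same bands (log2 of CPM + 0.5). Gains reach 28.8% and losses drop to 4.03% beyond 1000 kb, where all knockdown libraries lie above all control libraries.

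Far and nearer regions were also compared at like levels. All 193148 regions, tested or not, were cut into 10 equal classes of mean level, and tested far and nearer regions were compared within each class. Far regions had a larger share of gains and a smaller share of losses than nearer regions in each of the lowest 9 classes. In the lowest class 18.6% of 3497 far regions rose and 4.09% fell, against 9.66% and 5.79% of nearer regions. In the fifth class the shares were 18.97% and 11.1% against 11.1% and 15.1%. In the highest class, with 239 far regions, the order turned: 35.6% rose and 7.53% fell, against 39.8% and 4.61% of nearer regions.

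**Figure D2:**
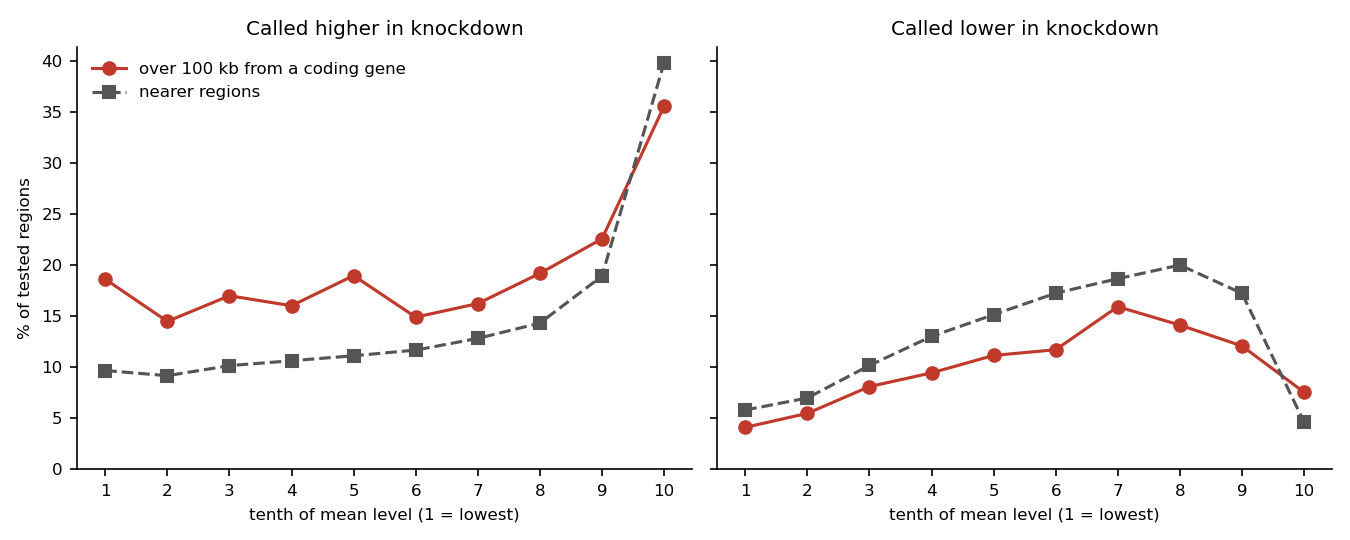
Percentage of tested regions called higher (left) and lower (right) in knockdown in 10 classes of mean level, for far regions (red circles) and nearer regions (grey squares). The far line is above the nearer line for gains and below it for losses in classes 1 to 9, and the order turns in class 10.

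The pattern was spread over the genome. On each of the 19 chromosomes more far regions rose than fell, the share of gains was above and the share of losses below that of nearer regions, and the far median was above the nearer one. Chromosome 9 was the exception in sign, with a far median of -0.0056, 14.2% higher and 12.3% lower. The highest median was on chromosome 19 (0.29), and the largest share of gains on chromosome 17 (20.8%).

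With TMM scaling, positive changes came in longer stretches than negative ones among far regions, with up to 31 regions against 20. The order turned with other scalings: the longest positive and negative stretches held 19 and 41 regions with library totals, and the longest negative one held 32 with reads in regions. A stretch is a run of neighbouring tested far regions with the same sign of log2 fold change, ended by a region of the other sign or by a nearer region. Stretches are chosen on these values, so separation of the groups within a stretch partly follows from the choice and is no test. Positive stretches had a mean length of 2.45 regions, and 74 held 10 or more, while negative stretches had a mean of 1.86 and 22 of that length. Among nearer regions the means were 2.26 for positive and 2.38 for negative stretches, and the longest held 29 and 27 regions. Of the positive far regions 35.2% lay in stretches of at least 5, and of the negative ones 19.01%, against 30.3% and 33.6% of the positive and negative nearer regions. Positive values made up 57.3% of far regions and 48.7% of nearer ones, and this share moves with the lengths of the stretches.

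Among the longest positive stretches, one held 21 regions over 1209.8 kb of the gap between Plod2, a collagen-modifying enzyme gene, and Dipk2a (mm10 chromosome 9, 92882512 to 94092301). The mean level over the stretch was 1.01, 1.02 and 1.32 CPM in control replicates 1 to 3 and 1.96, 1.94 and 1.58 CPM in knockdown replicates 1 to 3, so every knockdown library was above every control library. Of its regions 9 were called higher and none lower, with a median log2 fold change of 0.54. Its largest gain was at 92962523 to 92962923, 354094 bp from Plod2, with 0.380, 0.156 and 0.237 CPM in control and 2.12, 1.66 and 1.26 CPM in knockdown (log2 fold change 2.78, SE 0.43, edgeR adjusted p = 2.0e-04). With library totals 17 of the 21 regions kept a positive sign and 7 were called, while DESeq2 called 5.

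The stretch of 19 regions between Haao, an enzyme gene of the kynurenine pathway, and Zfp36l2, encoding an RNA-binding protein of mRNA decay (chromosome 17, 83953686 to 84082449), was different. It had 2.11, 1.71 and 2.14 CPM in control but 6.32, 2.54 and 5.18 CPM in knockdown, so knockdown replicate 2 stood near control while replicates 1 and 3 were far above it. Here 13 regions were called, 14 without knockdown replicate 2. Another 19 regions formed a stretch between Celf2, encoding an RNA-binding splicing regulator, and Gata3, a transcription factor gene of midbrain inhibitory neurons (chromosome 2, 8912433 to 9620973), at 1.49, 1.89 and 2.12 CPM in control and 3.23, 3.13 and 3.05 CPM in knockdown. Of these 12 were called higher, 6 with library totals and 7 in DESeq2 or without control replicate 1.

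The longest negative stretch held 20 regions in 130.2 kb between Arpp21, encoding a neuronal cAMP-regulated phosphoprotein, and Pdcd6ip, of endosomal sorting (chromosome 9, 113171803 to 113301992). Its mean level was 3.08, 2.41 and 2.54 CPM in control and 1.75, 1.74 and 2.02 CPM in knockdown, which did not overlap, and 6 regions were called lower (2 in DESeq2 and without control replicate 1, 3 without control replicate 2, 12 with library totals). The fifth longest, of 13 regions with 2 called, lay in the same gap. Between the cadherin genes Cdh11 and Cdh5 (chromosome 8, 103352696 to 103489854) 16 regions had 2.72, 2.22 and 2.27 CPM in control and 1.09, 1.36 and 1.52 CPM in knockdown, with 7 called. Between Eef2kmt and Rbfox1, a neuronal splicing regulator gene (chromosome 16, 5538588 to 5640442), 16 regions had 2.10, 2.27 and 2.33 CPM in control and 1.32, 1.45 and 1.51 CPM in knockdown, with 6 called (3 in DESeq2 and without control replicate 2, 10 with library totals). Between Icos, a T cell costimulator gene, and Pard3b, of cell polarity (chromosome 1, 61203569 to 61316639), 14 regions had 3.52, 2.96 and 2.62 CPM in control and 1.86, 2.02 and 1.904 CPM in knockdown, with 6 called. Without control replicate 2, 3 were called and 13 of the 16 regions then tested were negative. Mean levels of the knockdown libraries were all below the control libraries in each of these stretches. This partly follows from choosing stretches on the sign of the change.

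**Figure D3:**
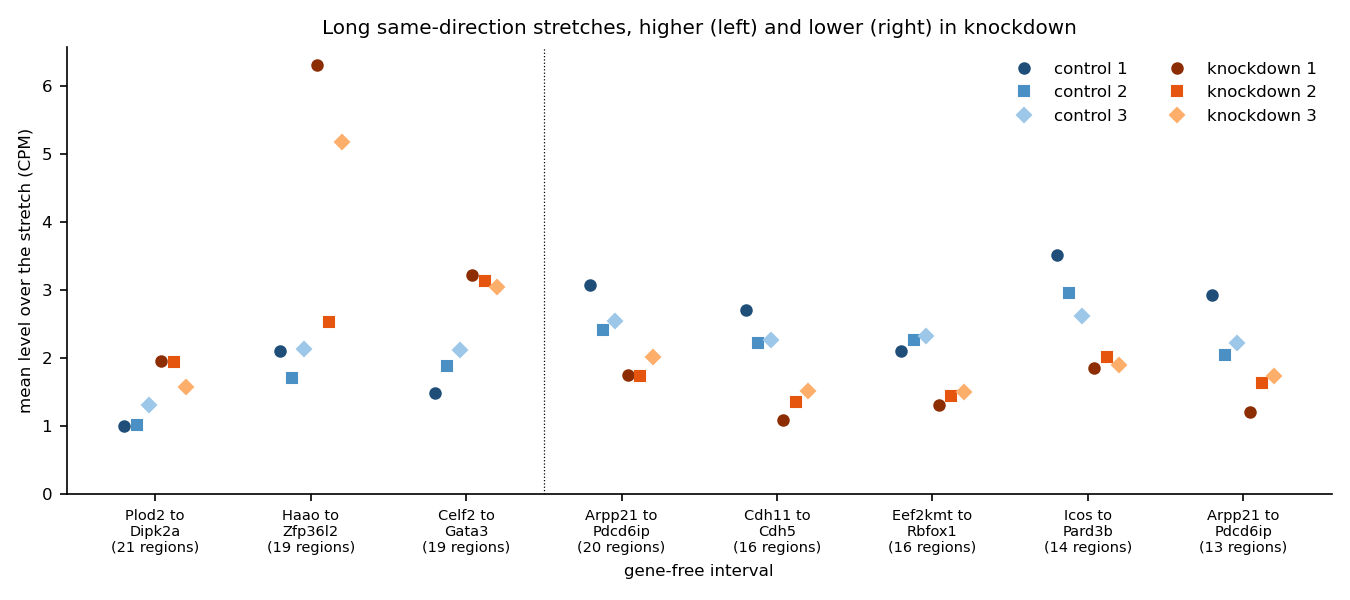
Mean level (CPM) of each library over 3 of the longest positive stretches (left of the dotted line) and the 5 longest negative stretches of far regions. Knockdown replicate 2 is near control in the Haao to Zfp36l2 stretch (2.54 CPM against 6.32 and 5.18 CPM), and elsewhere the 3 knockdown libraries lie together on one side of control. Stretches are chosen on the sign of the change, so such separation partly follows from the choice.

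**Figure D4:**
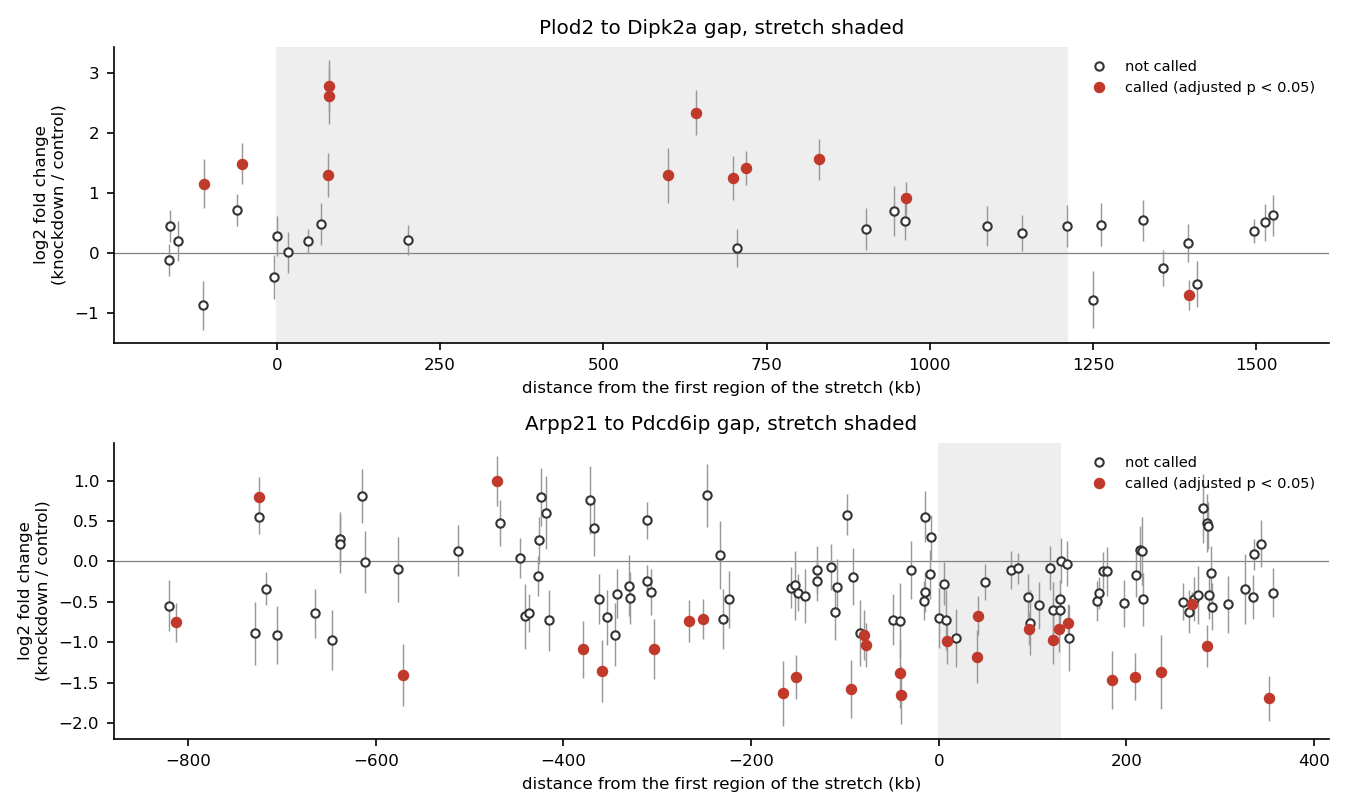
Log2 fold change with its SE, derived from the F statistic, for every tested far region of the Plod2 to Dipk2a gap (top) and the Arpp21 to Pdcd6ip gap (bottom). The horizontal axis is the distance from the first region of the shaded stretch in kb. Filled points are called. The upper stretch runs for 1209.8 kb with 9 of 21 regions called higher, and in the lower gap 27 of 128 regions are called lower and 2 higher.

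Runs in which every far region was called were short. The longest of gains held 8 regions in 280.8 kb of the Celf2 to Gata3 gap (chromosome 2, 9340210 to 9620973), at 2.28, 2.77 and 2.66 CPM in control and 4.71, 4.29 and 4.35 CPM in knockdown. A run of equal length between 4931408C20Rik and Phf3 (chromosome 1, 28373342 to 29562818) crosses coding genes that have no accessible region within 100 kb, at 0.902, 0.811 and 1.05 CPM in control and 2.31, 2.39 and 2.02 CPM in knockdown. The third held 7 regions over 1028.2 kb between Trim52 and Slitrk1, a synaptic adhesion gene (chromosome 14, 106608428 to 107636594), at 0.760, 0.915 and 1.16 CPM in control and 2.79, 2.31 and 2.34 CPM in knockdown. In all of these the groups were apart, which largely follows from joining only called regions of the same direction. Calls were lost in each of them under some alternatives: 3 of 8, 5 of 8 and 5 of 7 regions were called with library totals, and 5 of 8 in the Celf2 to Gata3 run in DESeq2 and without any 1 of the control libraries or knockdown replicate 1. A run of 5 called gains, singled out after its values were seen, spans Mir124-2hg, the host transcript of a microRNA abundant in neurons (chromosome 3, 17786093 to 17794019). At 11.1, 12.2 and 12.2 CPM in control and 18.4, 17.99 and 18.7 CPM in knockdown the groups were apart, with a median log2 fold change of 0.64.

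The longest runs of called losses lay in the gap between Tmpo, encoding a nuclear lamina-associated protein, and Nedd1, of the mitotic spindle, and overlap the non-coding gene Gm20757. Of these, 6 regions (chromosome 10, 92210405 to 92239001) had 3.56, 3.37 and 2.31 CPM in control and 1.21, 1.40 and 1.24 CPM in knockdown. Another 5 (92298534 to 92315190) had 2.75, 2.13 and 1.87 CPM in control and 0.938, 1.17 and 1.01 CPM in knockdown, of which 1 was called without control replicate 1, 2 in DESeq2 or without knockdown replicate 3, and 3 without control replicate 3 or knockdown replicate 1. The third held 4 regions between Rps24, a ribosomal protein gene, and Zmiz1, a transcriptional coregulator gene (chromosome 14, 24875100 to 24911998), at 6.59, 5.59 and 5.85 CPM in control and 3.35, 2.75 and 3.69 CPM in knockdown. Control and knockdown were apart in these 3 runs, which again largely follows from joining only called losses.

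Neighbouring far regions were compared in direction. Of 16873 neighbouring pairs of far regions 57.5% had the same sign, and 57.3% of nearer pairs. Where both members were called and less than 1 kb lay between them, 94.7% of far pairs and 94.0% of nearer pairs had the same direction. At gaps of 20 to 100 kb these shares were 74.0% of 361 far pairs and 58.6% of 1385 nearer pairs. Over all pairs, whether called or not, Pearson's r of the log2 fold changes was 0.17 for far and 0.18 for nearer pairs, 0.11 and 0.088 at gaps of 20 to 100 kb, and 0.044 and 0.097 beyond 100 kb, as a description across pairs that share libraries. Most of the called far pairs at gaps of 20 to 100 kb were gains in both members (227, against 40 with losses in both). Gains were also a larger share of the far calls than of the nearer calls (66.4% against 53.8%), and the part of this in the shared direction was not tested.

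Far regions fell into 1192 gaps between neighbouring coding genes. In 309 gaps with at least 20 tested far regions, the median log2 fold change was above 0 in 227, and gains outnumbered losses in 216 and losses outnumbered gains in 66. Long gaps had a larger surplus of gains: in gaps of 200 to 500 kb 15.5% rose and 10.6% fell, and in gaps over 2000 kb 22.7% and 5.35%, with medians of 0.049 and 0.31. The 5 fullest gaps differed in direction, and losses outnumbered gains in 4 of them. Tmpo to Nedd1 held 176 far regions, with 12 of 174 higher and 25 lower, and Arpp21 to Pdcd6ip held 129, with 2 of 128 higher and 27 lower. Rps24 to Zmiz1 held 111, with 18 higher and 28 lower. Celf4 to Pik3c3, also with 111, had 14 of 107 higher and 7 lower. Klhl29 to Apob, with 110, had 8 of 107 higher and 12 lower. In the Arpp21 to Pdcd6ip gap the mean level was 2.55, 2.11 and 2.21 CPM in control and 1.58, 1.76 and 1.81 CPM in knockdown, and the groups did not overlap.

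A few gaps beside developmental genes were picked with their values known. The gap between Shh, a morphogen gene, and Rnf32 had 0 of 27 regions higher and 9 lower, at 3.74, 3.12 and 3.42 CPM in control and 2.21, 2.37 and 2.35 CPM in knockdown, with a median of -0.51. Between Sox2, a transcription factor gene of neural progenitors and glia, and Atp11b 12 of 26 rose and 1 fell, with a median of 0.65, at 1.83, 1.61 and 1.99 CPM in control and 3.34, 1.999 and 3.11 CPM in knockdown. Knockdown replicate 2 was at the level of control replicate 3 there. Between Unc5d, a netrin receptor gene, and Dusp26 14 of 33 rose and none fell, with all knockdown libraries (2.28 to 2.76 CPM) above control (1.42 to 1.85 CPM).

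The largest gains rose from near the limit of detection, where 3 reads equal 0.117 to 0.238 CPM depending on the library, so their folds are imprecise. The most even was at 153026 bp from Spata19, a sperm mitochondrial gene (chromosome 9, 27554738 to 27555138), with 0.228, 0.352 and 0.284 CPM in control and 4.23, 4.76 and 4.25 CPM in knockdown (log2 fold change 3.85, SE 0.30, edgeR adjusted p = 1.9e-07). Next to it in size, a region 106831 bp from Sp3, encoding a zinc finger transcription factor (chromosome 2, 72829198 to 72829598), had 0.152, 0.234 and 0.189 CPM in control and 3.78, 2.69 and 2.99 CPM in knockdown (3.93, SE 0.35). These rose in each knockdown library alike. The region 140379 bp from the synaptic adhesion gene Lrfn2 (chromosome 17, 48790810 to 48791210) had 0.304, 0.391 and 0.568 CPM in control and 11.4, 3.804 and 8.84 CPM in knockdown, with replicate 2 lowest. The regions nearest to Rfpl4b (0.076, 0.117 and 0 CPM against 1.51, 1.27 and 0.864 CPM) and Iqcm (0.076, 0.156 and 0.047 CPM against 1.66, 0.951 and 1.53 CPM) rested on few reads in both groups.

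The other 3 of the 8 largest gains were carried by knockdown replicate 1, the library whose title and genotype disagree. The region nearest to Gm9733 had 9.98, 1.27 and 1.13 CPM in knockdown replicates 1 to 3, against 0.214 CPM in control, and without replicate 1 its log2 fold change moved from 4.20 to 2.44. At Fign, encoding a microtubule-severing enzyme, the values were 7.71, 0.793 and 0.997 CPM against 0.255 CPM, and the fold change moved from 3.69 to 1.91. At Mad2l1, a spindle checkpoint gene, they were 9.45, 0.951 and 2.46 CPM against 0.326 CPM, and it moved from 3.66 to 2.38. All 3 stayed called without this library.

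The largest losses started from mean control levels of 2.61 to 6.85 CPM. These lie above the control levels of the largest gains, which follows from choosing by fold with 1 CPM required only in the higher group. In their own higher group, knockdown, the largest gains had means of 1.21 to 8.02 CPM. The region nearest to Lnpk, encoding an endoplasmic reticulum shaping protein (chromosome 2, 74291444 to 74291844), had 5.01, 5.31 and 5.87 CPM in control and 0.605, 0.872 and 0.199 CPM in knockdown (log2 fold change -3.30, SE 0.32, edgeR adjusted p = 2.2e-06). Control was nearly constant at the region 252169 bp from Cryba4, a lens crystallin gene (chromosome 5, 111993922 to 111994322), which had 5.39, 5.47 and 5.30 CPM in control and 1.13, 0.634 and 0.665 CPM in knockdown (-2.73, SE 0.26). The region 202201 bp from Cadm1, encoding a synaptic adhesion protein (chromosome 9, 47327568 to 47327968), overlaps the non-coding gene Gm31816 and had 5.17, 4.26 and 5.49 CPM in control and 0.832, 0.396 and 0.399 CPM in knockdown (-3.18, SE 0.30). Regions nearest to Grin2b, encoding a subunit of the NMDA receptor (3.65, 2.66 and 1.52 CPM against 0.227, 0.238 and 0.532 CPM), and Nrp1, a semaphorin receptor gene (6.76, 4.37 and 4.17 CPM against 0.378, 0.793 and 0.930 CPM), also lost most of their accessibility. The synaptic vesicle gene Syt1 (11.02, 5.51 and 4.02 CPM against 0.529, 1.27 and 1.33 CPM), the kinetochore gene Zwint (-2.72) and Uaca (-2.64) were the nearest genes of the other losses. Control replicate 1 was highest at Syt1, Nrp1, Zwint and Grin2b, and the call held without it in each.

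The most accessible far regions changed little by comparison. The region 104242 bp from Zfat, a zinc finger gene (chromosome 15, 68363165 to 68363565), had 44.6, 45.1 and 44.9 CPM in control and 66.9, 52.4 and 57.8 CPM in knockdown (log2 fold change 0.40, SE 0.099, edgeR adjusted p = 0.0069). One nearest to Rps24 had 41.4, 38.4 and 41.3 CPM in control and 61.2, 47.8 and 62.6 CPM in knockdown (0.51). Both were higher in all knockdown libraries, but neither passed with library totals (edgeR adjusted p = 0.42 and 0.16) or loess curves (0.60 and 0.11). The regions nearest to Pcmtd1 (45.3 ± 4.06 and 49.2 ± 8.61 CPM, SD, n = 3) and Myt1l, a neuronal transcription factor gene (48.3 ± 4.74 and 41.8 ± 5.22 CPM, SD, n = 3), did not pass, at 0.12 and -0.20. Myt1l passed as lower with library totals, reads in regions and loess curves.

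The 3 regions farthest from any coding gene lay in 2 gaps. The farthest, 2249144 bp from Celf4 (chromosome 18, 28003665 to 28004065), rose from 0.228, 0.312 and 0.237 CPM in control to 2.27, 1.43 and 1.20 CPM in knockdown (log2 fold change 2.58, SE 0.42, edgeR adjusted p = 3.2e-04). Another of that gap, 2200187 bp from Celf4, and one 2236728 bp from Pcdh20 did not pass, at 0.11 and 0.25. In each of those the groups overlapped.

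Starts of non-coding genes were a small and more accessible subset. Of the far regions 3991 (21.6%) overlapped a non-coding gene, 3836 of them a long non-coding RNA gene, and of those tested 16.4% rose and 9.92% fell, against 17.6% and 8.50% of far regions outside every gene of the table. At the promoter windows 59 of 269 tested regions rose (21.9%) and 29 fell (10.8%), with a median log2 fold change of 0.16 and a median level of 2.66 CPM. Tunar, a long non-coding RNA of neural differentiation whose window is printed above, had 23.0, 24.6 and 22.7 CPM in control and 34.6, 35.2 and 40.1 CPM in knockdown (chromosome 12, 105336553 to 105336953; 0.64, SE 0.10, edgeR adjusted p = 2.3e-04). Lncpint, a long non-coding RNA induced by p53 (chromosome 6, 31218337 to 31218737), had 18.9, 18.1 and 16.3 CPM in control and 26.1, 28.8 and 30.2 CPM in knockdown (0.68, SE 0.11). A second region inside Lncpint, among the 5 most accessible far regions, had 44.7, 38.0 and 33.1 CPM in control and 63.2, 51.8 and 59.0 CPM in knockdown (0.59), a call lost with library totals (edgeR adjusted p = 0.055), and 2210408F21Rik, which starts beside it, did not pass (0.21). The start regions of Tunar and Lncpint were higher in all knockdown libraries and passed in each alternative fit except grouping by title.

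The other starts varied. The most accessible start, 9530059O14Rik, rose (log2 fold change 0.31), a call lost in 5 alternative fits besides grouping by title. Gm29998, also among the most accessible starts, rose (0.43), and this call was lost with library totals and loess curves. Gm35440, whose window holds the STAT letters (chromosome 12, 77749554 to 77749954), had 1.37, 1.68 and 1.42 CPM in control and 7.26, 2.77 and 8.64 CPM in knockdown (log2 fold change 2.05, SE 0.32), with knockdown replicate 2 nearest to control. The start of Dubr also holds the STAT letters and did not pass, at 24.9 ± 2.25 CPM in control and 25.2 ± 1.29 CPM in knockdown (SD, n = 3). Gm33646 (chromosome 4, 7192028 to 7192428) had 5.55, 3.79 and 3.46 CPM in control and 1.51, 1.59 and 1.86 CPM in knockdown (-1.33, SE 0.25), and the groups were apart. The largest gain at a start, Gm30158, rested on knockdown replicate 1, at 12.3, 1.51 and 1.79 CPM against 0.678 CPM in control, and moved from 2.81 to 1.19 without it.

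Of the far regions at hairpins of the Mir344 cluster 4 fell, 1 rose and 7 did not pass. Over all tested far regions 17.4% rose and 8.81% fell. The 13 hairpins of Mir344 lie between Gm51483 and Ndn, an imprinted gene of the Prader-Willi region, and 12 of them overlap a far region (chromosome 7, 61683027 to 62085593). Mir344c had 10.1, 9.34 and 11.4 CPM in control and 2.27, 3.09 and 3.19 CPM in knockdown (log2 fold change -1.85, SE 0.19, edgeR adjusted p = 3.7e-06). Mir344 had 15.0, 12.8 and 12.8 CPM in control and 7.71, 7.05 and 8.44 CPM in knockdown (-0.80, SE 0.14), and Mir344-2 had 12.2, 11.1 and 10.7 CPM and 6.73, 8.005 and 7.98 CPM (-0.58, SE 0.15). These 3 were called lower in every alternative fit except grouping by title. They share the seed GAUCUAG and also follow each other along the 12 hairpins with a far region, and this grouping was made after the values were seen.

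The rest of the cluster was mixed. The 4 hairpins with the seed AUAUAAC did not pass (log2 fold change -0.19, 0.016, -0.31 and -0.70). Mir344i, at 7.07, 7.46 and 7.91 CPM in control and 3.25, 3.49 and 3.59 CPM in knockdown, fell (-1.12, SE 0.18), more than Mir344 and Mir344-2, and does not have the seed GAUCUAG. Mir344f, at 5.93, 4.80 and 5.54 CPM in control and 8.32, 7.45 and 7.44 CPM in knockdown, was the only hairpin called higher (0.52, edgeR adjusted p = 0.028), and this call was lost in 6 alternative fits, among them DESeq2 and library totals, besides grouping by title. Over the 12 regions the mean level was 7.89, 7.21 and 7.68 CPM in control and 5.17, 5.51 and 5.55 CPM in knockdown, which did not overlap. The 18 other tested far regions of the span had a median log2 fold change of -0.18, with 1 higher and 2 lower, at 2.44, 2.31 and 2.36 CPM in control and 2.11, 2.25 and 2.00 CPM in knockdown. Mir344 and Mir344-2 give the same mature sequences, and read placement between such copies could split their reads, so their single values are uncertain. How alike the regions are in sequence was not tested.

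**Figure D5:**
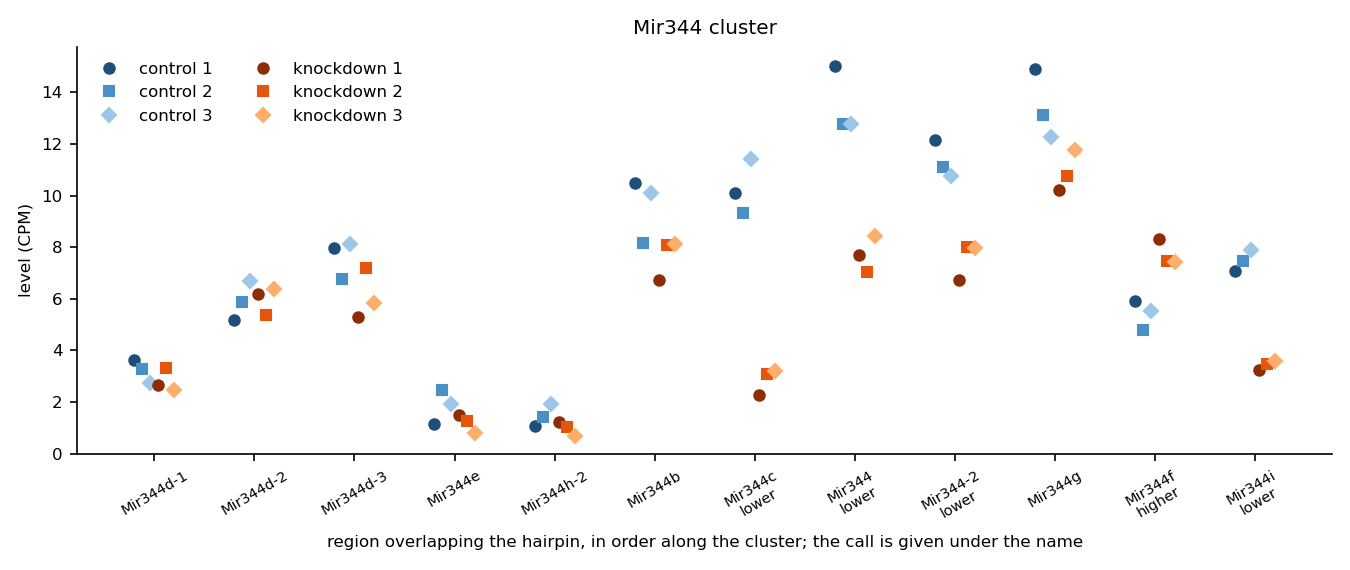
Level (CPM) of each library at the 12 far regions that overlap a Mir344 hairpin, in order along the cluster, with calls written under the names. Mir344c, Mir344, Mir344-2 and Mir344i are lower in all knockdown libraries, and Mir344f is higher (7.44 to 8.32 CPM against 4.80 to 5.93 CPM).

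Outside this cluster 6 hairpins lay in far regions. Mir137, a microRNA of neuronal maturation, had 5.93, 7.34 and 7.86 CPM in control and 8.92, 10.3 and 10.5 CPM in knockdown (log2 fold change 0.48, edgeR adjusted p = 0.030). Mir6343 had 0.836, 1.21 and 1.14 CPM in control and 1.36, 2.14 and 2.53 CPM in knockdown (0.89, edgeR adjusted p = 0.034). Mir205, Mir1251, Mir99a and Mir802 did not pass, with values from -0.43 to 0.56.

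Grouped by nearest coding gene, far regions beside developmental transcription factor genes had a larger share of gains than far regions as a whole, where 17.4% rose and 8.81% fell with a median log2 fold change of 0.12. Of 701 tested regions nearest to 57 transcription factor genes 171 rose (24.4%) and 52 fell (7.42%), with a median log2 fold change of 0.22. Sox2 led among genes with at least 15 tested regions, with 15 of 24 higher and none lower (median 1.34), at mean levels of 1.65, 1.59 and 1.72 CPM in control and 4.68, 2.25 and 3.41 CPM in knockdown. Id4, encoding an inhibitor of DNA binding, had 14 of 28 higher and 1 lower (0.69), and Irx1, a homeobox gene, 9 of 24 higher and none lower (0.68). Sox11 and Bcl11a, transcription factor genes of neuronal differentiation, went the other way, with 1 of 44 higher and 7 lower (-0.15) and 3 of 27 higher and 4 lower (-0.35). The 5 genes just named were picked with their values known. The largest changes of the list were a gain 228229 bp from Irx5 (1.52, 0.586 and 0.615 CPM against 7.79, 2.77 and 6.91 CPM) and a loss 159838 bp from Sox11 (0.760, 1.21 and 1.04 CPM against 0.151, 0.476 and 0.199 CPM).

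Cell adhesion and axon guidance genes, which often border long gaps, had 200 of 1077 regions higher (18.6%) and 88 lower (8.17%), with a median of 0.24, against 17.4%, 8.81% and 0.12 for all tested far regions. Tenm3, a teneurin gene of synaptic partner matching, had 19 of 95 higher and 1 lower, while Adgrl2, a latrophilin gene, had 5 of 65 higher and 9 lower. Ion channel and neurotransmitter receptor genes had 63 of 442 higher (14.3%) and 45 lower (10.2%). A region 104553 bp from Kcnk2, a potassium channel gene, rose from 0.227 ± 0.134 to 1.58 ± 0.311 CPM (SD, n = 3). Drd1, the D1 dopamine receptor gene, had 3 of 15 lower and none higher, at 3.37, 3.12 and 3.44 CPM in control and 2.33, 2.54 and 2.22 CPM in knockdown. Of 31 regions nearest to olfactory, vomeronasal or taste receptor genes 6 rose and none fell, among them one 190509 bp from Tas2r134 (0.480 ± 0.103 to 1.42 ± 0.624 CPM, SD, n = 3), a call lost without knockdown replicate 2 (edgeR adjusted p = 0.083).

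Cell type markers split, beside 17.4% higher and 8.81% lower over all tested far regions. Few far regions belonged to dopaminergic genes, with 34 tested ones nearest to Foxa2, Nr4a2 or En1. These are transcription factor genes of these neurons and are also on the transcription factor list. Of the 34 regions 5 rose (14.7%) and 1 fell (2.94%), with a median of 0.020, so the share of gains was near that of all far regions. A region 209567 bp from En1 rose (0.608, 0.391 and 0.805 CPM against 2.95, 1.59 and 3.26 CPM), and one 172616 bp from Foxa2 had 1.13 ± 0.285 and 0.472 ± 0.122 CPM (SD, n = 3), a loss no longer called in DESeq2 (adjusted p = 0.11), without control replicate 2 (edgeR adjusted p = 0.12) or without knockdown replicate 3 (0.093). Of 49 regions of GABAergic markers 19 rose (38.8%) and 4 fell (8.16%), with a median of 0.50. Most were nearest to Gata3 (13 of 30 higher, 2 lower) and Sox14 (5 of 6 higher), both transcription factor genes of midbrain inhibitory neurons, and Gata3 is also on the transcription factor list. Nearly all of the 19 gains lay at these genes, although 4 of the markers had far regions. The share of gains is therefore that of Gata3 and Sox14 and not of GABAergic markers in general. At Sox14 the mean was 0.570, 0.964 and 0.773 CPM in control and 2.10, 2.26 and 1.93 CPM in knockdown. The summed gene-end level of GABAergic markers was also higher in each knockdown library than in any control library, and its part in these counts was not tested.

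Of 40 regions of astrocyte markers 20 rose and 4 fell, with a median of 0.83. They belonged to Sox9, a glial transcription factor gene also on the transcription factor list (11 of 24 higher, 1 lower), Gja1, encoding the astrocyte gap junction protein connexin 43 (8 of 13 higher, 2 lower), and Slc1a3, a glutamate transporter gene (1 of 3 higher, 1 lower). Their mean level was 1.49, 1.09 and 1.35 CPM in control and 2.81, 1.67 and 2.87 CPM in knockdown, with knockdown replicate 2 lowest. At 509206 bp from Gja1 the values were 3.27, 1.13 and 1.70 CPM in control and 12.1, 2.38 and 12.2 CPM in knockdown, and replicate 2 was within the range of control. The summed gene-end level of astrocyte markers also had knockdown replicate 2 lowest, with 211, 162 and 223 CPM in knockdown replicates 1 to 3, and its part was not tested. Of 32 regions of endothelial and mural markers, nearly all nearest to Cdh5, 3 rose (9.4%) and 6 fell (18.8%), with a median of -0.27. Of the oligodendrocyte marker Pdgfra 1 of 4 regions rose, and no far region was nearest to a glutamatergic or microglial marker.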

How the data were processed

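Accessibility was measured by ATAC-seq in 6 libraries, 3 per group, with groups from the genotype labels. FastQC, Trimmomatic, BWA, SAMtools 1.9, Picard, MACS2 and mm10 are named, with no roles, per the submitters' processing notes. How the regions were made, how reads were counted and whether reads were shifted is not given in the sources used here, and the labels' protocols describe a general DNA library kit with no transposition step. Read counts per region are as deposited by the authors. The RPKM values deposited by the authors were used only to recover library totals, and the score the authors deposited was not used in a test.

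Counts of all regions were fitted with edgeR 4.0.16 in R 4.3.3 (filterByExpr, TMM, quasi-likelihood test on group), with Benjamini-Hochberg adjustment over all 191693 tested regions and a threshold of 0.05. The SE of a log2 fold change is its absolute value divided by the square root of the test's F statistic, and was not estimated separately. The procedure was tested on simulated data. Alternatives were DESeq2 1.42.0, loess offsets from limma 3.58.1, other scalings, filters, distances and thresholds, leaving out each library, and grouping by title. With 3 libraries against 3, an exact permutation test of a single value cannot go below p = 0.1, so none was used.

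Distances were taken to RefSeq protein-coding genes of GRCm38.p6. No genome was used, so sequences of the regions themselves are not analysed here. The regions, gene lists and named-region rule were chosen with earlier results of these data known. The rule names the 5 longest stretches and 3 longest called runs per direction, the 8 largest called changes per direction without overlap between groups at 1 CPM or more, the 5 most accessible and the 3 farthest regions, the 5 fullest gaps, and 1 called region per list and direction. MicroRNA hairpins, promoter windows and single genes of lists lie outside it and were chosen after values were seen. Where the rule led to items withheld from this text, among them 2 of the longest positive stretches, the result is not reported here.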

Additional observations from a re-analysis of the deposited data

How the results depend on the processing

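No paired analysis was possible because the replicate numbers were given in accession order and pair no libraries. Against 3136 far regions higher, DESeq2 gave 1979, library totals 1775, grouping by title 0, distances over 200 kb 1844, distances over 100 kb from a gene of any type 608, an adjusted p under 0.01 1581, and leaving out single libraries 1999 to 2914. Against 1590 lower, these gave 868, 3100, 0, 808, 241, 641 and 949 to 1730, and distances over 50 kb 2648. Other distances count other sets of regions. Over 100 kb from a gene of any type 3113 regions were tested, and 19.5% rose and 7.74% fell, against 17.4% and 8.81% of the 18057 far regions. The fewest gains came without control replicate 2 (1999) and the fewest losses without control replicate 1 (949). Against a median log2 fold change of 0.12, library totals gave -0.14, reads in regions 0.011, title 0.061, genes of any type 0.19, and leaving out single libraries 0.069 to 0.22. Against a longest positive stretch of 31 regions, library totals gave 19, title 20, genes of any type 16, ending stretches at gaps over 100 kb 20, and leaving out single libraries 22 to 32. Against a longest negative stretch of 20, library totals gave 41, reads in regions 32, genes of any type 12, and leaving out single libraries 16 to 23. The longest run of called gains (8) was 5 in DESeq2, with library totals, genes of any type and an adjusted p under 0.01, 0 by title, and 5 to 10 without single libraries. The longest run of called losses (6) was 0 by title, 3 with genes of any type and an adjusted p under 0.01, and 3 to 6 without single libraries. Apart from the change in which regions are counted at other distances, the cause of these shifts was not tested.

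Of 59 named regions 46 were called, and 31 of these kept the call in every alternative but the title, and kept their sign by title. Another 5 also kept the call in every alternative but the title, but changed sign by title. Many named regions were picked because they were called, or after values were seen, so these counts partly follow from the choice. By title the log2 fold change turned to -1.08 at Gm9733, -1.14 at Fign, -0.52 at Mad2l1, -0.49 at the Cdh5 gain and -1.08 at Gm30158, where knockdown replicate 1 is the highest library. The median far region held 18 to 36 reads, depending on the library, so small changes at regions near or below that level may have gone undetected.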
